A study of Mus musculus with 6 samples.

Results

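The 33 genes described here encode the enzymes of glycolysis from hexokinase to lactate dehydrogenase, the transporters that bring glucose into the cell and move lactate across its membrane, the bifunctional enzymes that set the level of fructose 2,6-bisphosphate, fructose bisphosphatase, and the 2 glycerol phosphate dehydrogenases. They were taken by gene symbol from the 23367 gene entries of the deposited table, and all 33 were found in it and tested. The RNA was polyadenylated RNA of the gastrocnemius, a calf muscle made mostly of fast fibres, from wild-type FVB mice, with no transgene and no treatment. It was sequenced in 6 libraries covering 5 stages. The E18.5 library pooled 21 mice of both sexes and the PN2 library pooled 6 mice, while each of the 2 PN14 libraries, the PN28 library and the adult library (22 weeks) came from 1 mouse. Animals after birth were male, so sex and pooling cannot be told apart from stage at E18.5. The PN2 library was also a pool, so every comparison of PN2 with a later stage sets a pool against single mice. Column names place each library on a lane of its own, so lane and stage cannot be told apart either. The 10 markers of muscle fibres chosen to check the tissue were above 0 in every library and summed to 36700 FPKM at E18.5, 41500 at PN2, 140000 and 118000 for PN14 replicates 1 and 2, 153000 at PN28 and 132000 in adult muscle.

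Glycolysis splits glucose into pyruvate and yields ATP without oxygen, and fast muscle relies on it for short bursts of force. Most of its steps can be run by several isoenzymes from separate genes, of which one usually prevails in adult muscle (Slc2a4, Hk2, Pfkm, Aldoa, Pgam2, Eno3 and Ldha) while the others are typical of fetal, proliferating, liver, brain or blood cells. Pyruvate is either reduced to lactate, which renews cytosolic NAD and can leave the cell, or enters the mitochondria. The glycerol phosphate shuttle renews NAD by passing the electrons of cytosolic NADH to the respiratory chain.

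Levels are given as FPKM (fragment counts scaled to transcript length and to the size of the library), which allow genes to be compared with each other, and fold changes come from the counts after TMM normalization, which centres the typical gene on no change. The distinction matters because the 20 most abundant genes held 16% of the counts at E18.5 and 16.7% at PN2 but between 28% and 36.9% from PN14 on. Scaled to library size alone, as FPKM are, the median of all genes tested shifted by -0.66 (log2) from PN2 to PN14 and by -1.08 from E18.5 to adult, against -0.02 and -0.05 with TMM. A gene can therefore have a lower FPKM and no lower TMM level. The share that an isoform holds of the summed FPKM of its step in the same library does not depend on either scaling. Only PN14 had replicates, so every standard error and p-value rests on the spread of that pair, shared in part across genes. Nothing is known of the spread between animals at the other stages. The RNA came from whole muscle, in which fewer cells of a type and less RNA per cell cannot be told apart.

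The promoters of the phosphoglycerate mutase pair, of the muscle enolase and of the muscle fructose bisphosphatase are shown because these genes had contrasting courses. Each stretch holds the 250 bases before the RefSeq transcript start, taken from a RefSeq table of GRCm38.p6 and placed on mm9 by an exact match that was unique on its chromosome. Capitals mark E-boxes (CANNTG), the motif bound by myogenic factors, and the core ACGTG of the hypoxia response element, searched on both strands, and the 2 motifs overlap where an E-box reads CACGTG. The Pgam2 stretch lies at chr11:5703800-5704049 on the minus strand and holds 5 E-boxes and no ACGTG. The Pgam1 stretch lies at chr19:41986111-41986360 on the plus strand and holds 1 ACGTG and no E-box. The Eno3 stretch lies at chr11:70470428-70470677 on the plus strand and holds 1 E-box. The Fbp2 stretch lies at chr13:62959761-62960010 on the minus strand and holds 3 E-boxes, one of which is a CACGTG that counts as 2 ACGTG matches, 1 on each strand.
Pgam2: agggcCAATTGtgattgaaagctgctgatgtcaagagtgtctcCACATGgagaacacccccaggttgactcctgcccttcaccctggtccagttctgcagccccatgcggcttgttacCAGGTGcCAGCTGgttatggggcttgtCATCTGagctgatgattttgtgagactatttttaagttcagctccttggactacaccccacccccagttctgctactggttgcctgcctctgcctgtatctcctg
Pgam1: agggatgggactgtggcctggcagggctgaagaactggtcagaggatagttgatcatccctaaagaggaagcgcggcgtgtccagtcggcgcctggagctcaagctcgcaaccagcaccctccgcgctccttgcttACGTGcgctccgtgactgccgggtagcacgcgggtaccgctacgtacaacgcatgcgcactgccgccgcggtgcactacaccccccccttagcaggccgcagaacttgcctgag
Eno3: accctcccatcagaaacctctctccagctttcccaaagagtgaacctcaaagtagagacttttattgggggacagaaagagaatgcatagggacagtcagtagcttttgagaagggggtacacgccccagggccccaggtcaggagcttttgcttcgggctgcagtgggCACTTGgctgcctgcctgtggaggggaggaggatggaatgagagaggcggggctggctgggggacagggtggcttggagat
Fbp2: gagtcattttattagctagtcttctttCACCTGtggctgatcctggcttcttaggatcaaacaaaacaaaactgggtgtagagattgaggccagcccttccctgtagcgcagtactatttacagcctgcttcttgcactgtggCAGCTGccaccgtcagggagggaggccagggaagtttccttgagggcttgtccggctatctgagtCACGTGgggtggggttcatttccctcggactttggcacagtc

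Of the 32851 promoter windows of the same length in the RefSeq table, 66.2% held at least 1 E-box and 1.15% at least 5, while 16.6% held at least 1 ACGTG and 6.81% at least 2. Windows were found for 30 of the 33 genes (not for Gpd1, Slc2a3 and Slc2a4), 48 windows in all, and 21 of the 30 genes had an E-box and 15 an ACGTG in at least 1 window. Genes were counted over all their windows, so these counts cannot be set beside the shares per window. The matches describe letters in a window only.

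Together the 33 genes held a larger part of the transcriptome in the later libraries. Their share of the summed FPKM of all genes was 2.63% at E18.5, 2.56% at PN2, 5.55% and 4.94% for PN14 replicates 1 and 2, 5.88% at PN28 and 6.55% in adult muscle. Every library from PN14 on was above both perinatal ones, and the step from PN2 was larger than the difference within the PN14 pair. Aldoa, Gapdh, Eno3 and Pgam2 alone held 1.67% at E18.5, 1.70% at PN2, 4.09% and 3.49% at PN14, 4.45% at PN28 and 5.01% in adult muscle. In every library 28 of the 33 genes reached 1 FPKM, 17 reached 10 FPKM, 10 reached 100 FPKM and 4 reached 1000 FPKM. Fbp1 stayed below 1 FPKM throughout.

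**Figure D1:**
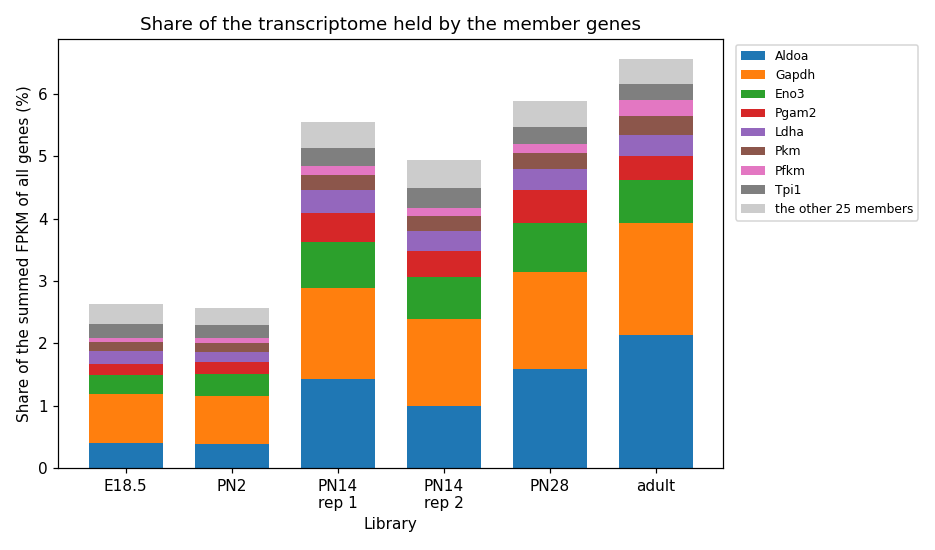
Stacked bars give the share (%) of the summed FPKM of all genes, with 1 bar per library. The 8 of the genes most abundant in adult muscle are shown singly and the other 25 together. The bars reach 2.63% at E18.5 and 2.56% at PN2 and between 4.94% and 6.55% in the 4 later libraries.

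A gene was called changed at an adjusted p under 0.05 with a log2 fold change of 1 or more in either direction. From PN2 to PN14, 12 of the 33 genes rose, against 11.8% of all 16882 genes tested, and 2 fell, against 11.2%. From E18.5 to adult 16 rose, against 21.4% of all genes, and 9 fell, against 23.6%. The risers at both included Slc2a4, Hk2, Pgam2, Ldhb, Slc16a3, Gpd1, Gpd2 and the 4 Pfkfb genes, while Pgk1 was not called from E18.5 to adult, where Slc2a3, Gpi1, Pfkm, Slc16a1 and Fbp2 also rose. The 9 that fell from E18.5 to adult were Hk1, Hk3, Pfkl, Pfkp, Aldoc, Pgam1, Eno1, Eno2 and Fbp1, none of them a muscle isoform. From PN2 to PN28, 12 rose and 1 (Fbp2) fell, against 27.0% of all genes called in either direction. The median log2 fold change of the 33 genes was 1.45 from PN2 to PN14 and 1.73 from E18.5 to adult with TMM, and 0.80 and 0.72 with library size alone, in each case above the median of all genes on the same scale.

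The other intervals gave few calls with edgeR's quasi-likelihood test. From E18.5 to PN2 none of the 33 genes was called, against 0.0296% of all genes. Of the 33 genes, 10 had an unadjusted p under 0.05, and DESeq2's Wald test called 5 and edgeR's exact test 6. Here and from PN14 to PN28, the share of all genes was not computed for unadjusted p or for the other tests. Without a test, 2 genes (Fbp2 and Gpd1) were at least 2-fold higher at PN2, against 1.93% of all genes, and 5 (Slc2a1, Pfkl, Aldoc, Pgam1 and Eno2) at least 2-fold lower, against 1.51%, among the 32 that reached 1 CPM. From PN14 to PN28 none was called, against 0.0178% of all genes, 5 had an unadjusted p under 0.05, and each of the other tests called 1. There 2 of 31 (Pfkfb1 and Pfkfb3) were at least 2-fold higher without a test, against 1.93%, and none 2-fold lower, against 1.38%. From PN28 to adult 1 gene (Slc2a3) rose, against 0.521% of all genes called in either direction, and without a test 2 of 31 (Slc2a3 and Pfkfb3) were at least 2-fold higher, against 2.9%, and 1 (Eno1) at least 2-fold lower, against 7.29%. The PN14 mice themselves differed by at least 2-fold in 2 of 31 genes (Pfkfb1 and Pfkfb3, both lower in replicate 2) and in 323 of all 12770 genes at that level.

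**Figure D2:**
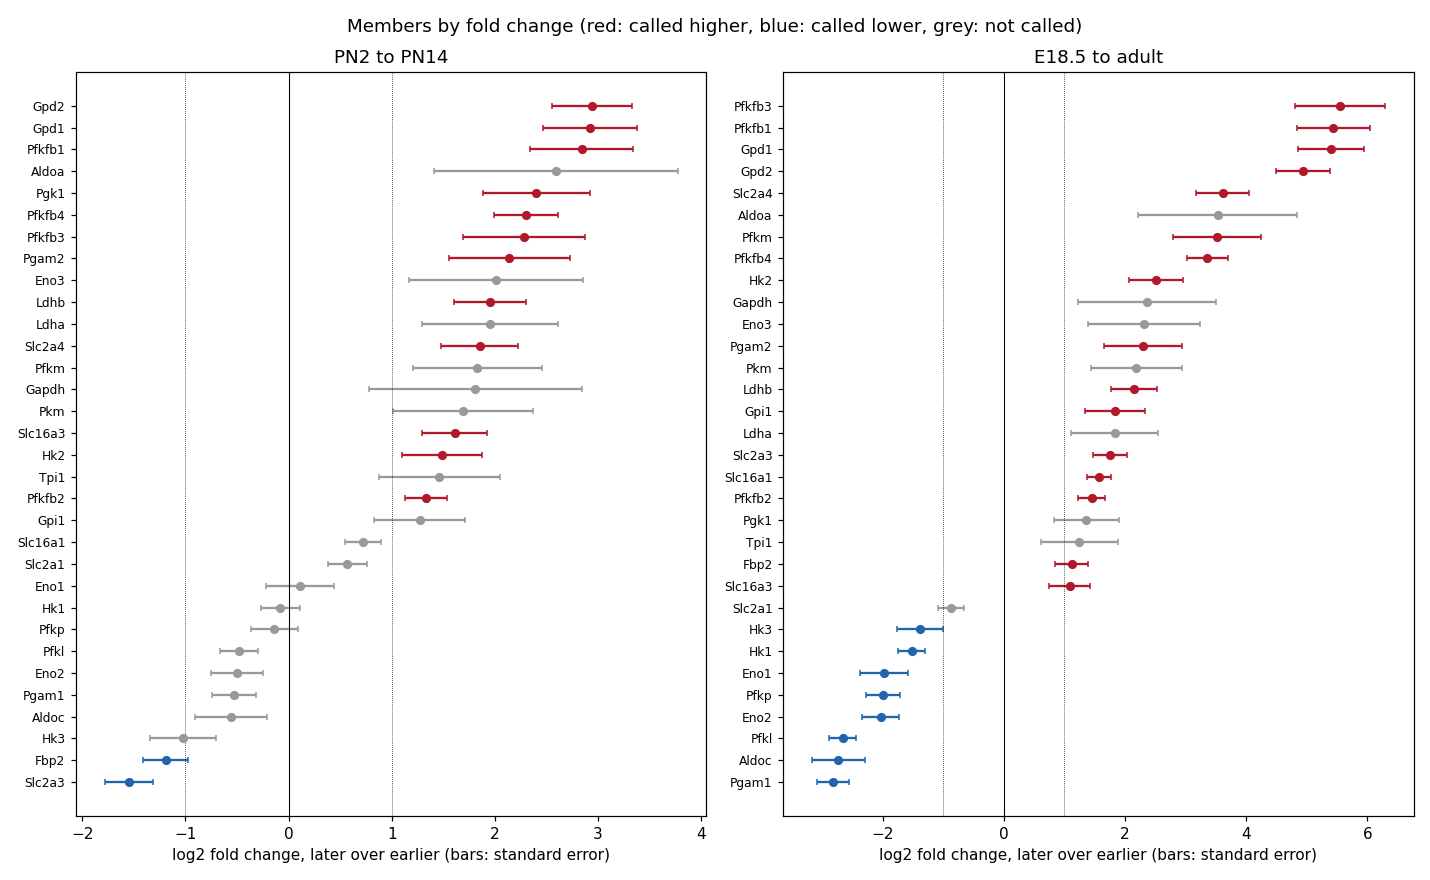
Points give the log2 fold change (later over earlier, TMM) of 32 of the genes, with bars for the standard error, from PN2 to PN14 on the left and from E18.5 to adult on the right, red for called higher, blue for called lower and grey for not called. Fbp1 is left out because it was at 0 counts in the adult. Aldoa, Gapdh and Eno3 lie well to the right of 0 in both panels but have standard errors between 0.84 and 1.31 and are grey.

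Step by step, the muscle isoform gained share between E18.5 and the adult at 8 of the 10 steps with more than 1 isoform. The exceptions were lactate dehydrogenase and lactate transport. At the step of the Pfkfb genes, counted among the 8, Pfkfb1 of liver and muscle was taken as the muscle isoform. It held 8.43% at E18.5, 28.8% at PN28 and 15.4% in the adult, where Pfkfb3 held 65.3%. The gain between PN2 and PN14 was found at 9 of the 10 steps (8 without PN14 replicate 2), and that from PN2 to PN28 at all 10. From PN2 to PN14 the exception was fructose bisphosphatase, where the log2 ratio of Fbp2 to Fbp1 changed by -0.52. Lactate dehydrogenase, counted among the 9, changed by 0.02 in the log2 ratio of Ldha to Ldhb, against 0.16 between the PN14 mice. Fructose bisphosphatase was counted as a gain from E18.5 to adult and from PN2 to PN28. There the gain came from Fbp1 going from few counts (31 at E18.5, 17 at PN2) to 1 at PN28 and 0 in the adult, at or under the floor of 3 counts. Expressed as the log2 ratio of the muscle isoform to the sum of the others, the change from E18.5 to adult was 3.94 for glucose transport, 4.02 for hexokinase, 6.0 for phosphofructokinase, 6.30 for aldolase, 5.12 for phosphoglycerate mutase and 4.30 for enolase. The PN14 mice differed in these 6 ratios by between -1.05 and -0.37 (replicate 2 minus replicate 1). These ratios have 1 library at each end and were not tested.

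**Figure D3:**
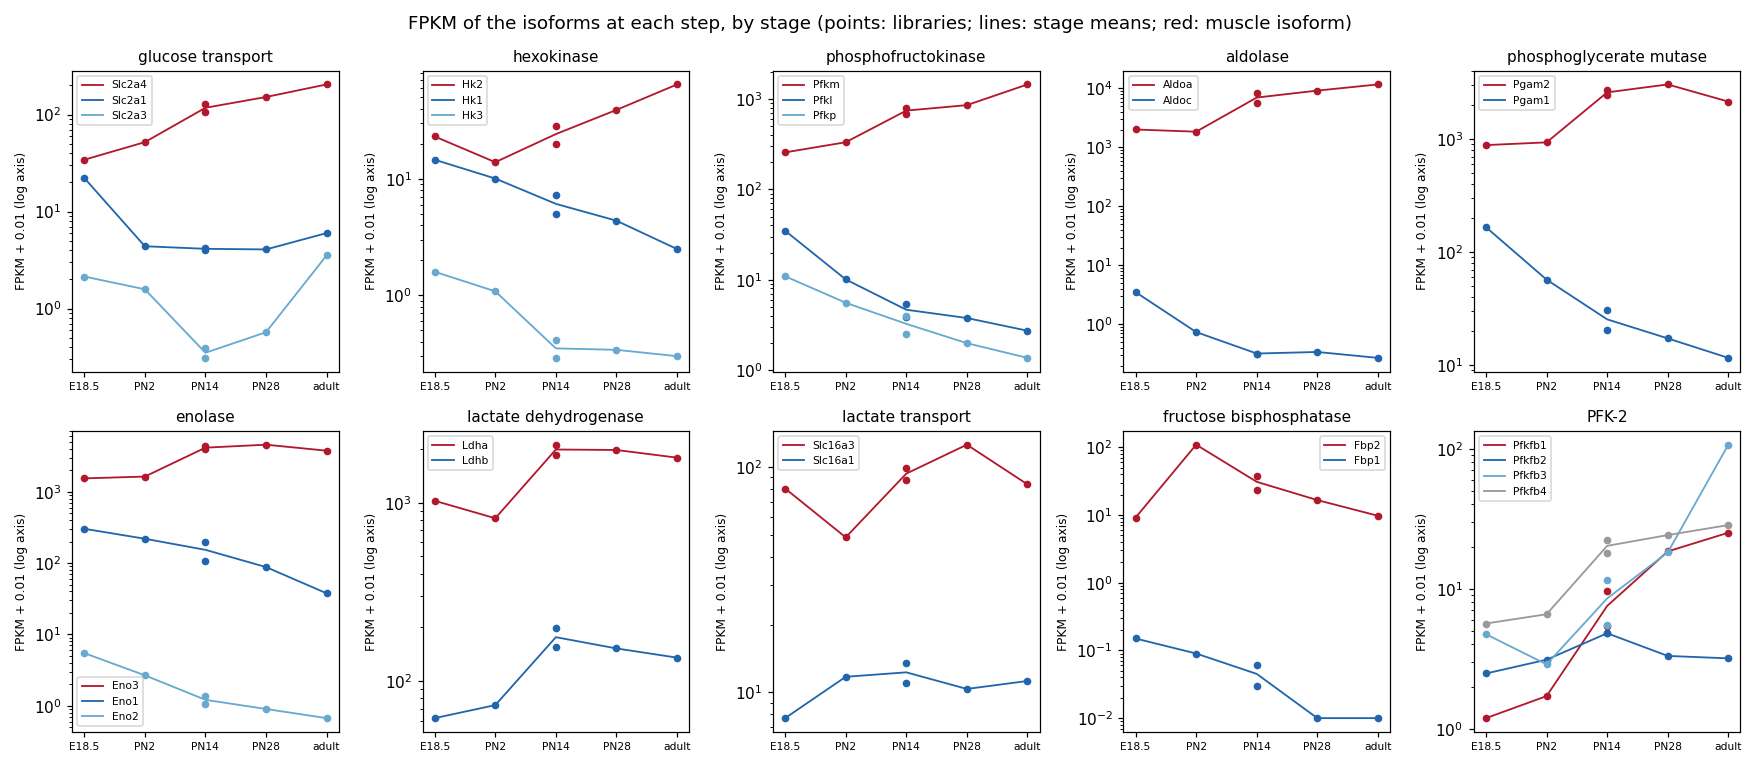
Each panel is an enzyme or transport step and shows the FPKM of its isoforms (plus 0.01, on a log axis) by stage, with a point per library, lines through stage means and the muscle isoform in red. In 6 panels, from glucose transport to enolase, the red line ends higher in the adult than at E18.5 while the blue lines end lower, apart from Slc2a3, which ends at 3.52 FPKM against 2.13.

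Slc2a4 encodes GLUT4, the glucose transporter that insulin and contraction bring to the surface of muscle fibres. Its level was 34.2 FPKM at E18.5, 52.0 at PN2, 128 and 107 at PN14, 152 at PN28 and 205 in adult muscle, so that each later stage lay above the one before. It rose 3.61-fold from PN2 to PN14 (log2 fold change 1.85, SE 0.374, edgeR quasi-likelihood test with Benjamini-Hochberg adjusted p = 0.018) and 12.2-fold from E18.5 to adult. Slc2a1 encodes GLUT1, the widely expressed transporter of fetal tissues and red blood cells. It stood at 22.2 FPKM at E18.5 and at 4.38 at PN2, 3.99 and 4.25 at PN14, 4.06 at PN28 and 5.99 in adult muscle, apart at E18.5 from all the rest. The log2 fold change from E18.5 to PN2 was -2.34 (SE 0.221), which missed the threshold by edgeR's quasi-likelihood test (Benjamini-Hochberg adjusted p = 0.093), and was called with library size alone, without a filter on low counts, by edgeR's exact test and by DESeq2's Wald test. The 8 erythroid markers summed to 8940 FPKM at E18.5, to between 1220 and 2210 from PN2 to PN28 and to 393 in the adult, and their part in the level of Slc2a1 was not tested.

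As a result Slc2a4 held 58.4% of the summed FPKM of the 3 transporters at E18.5, 89.7% at PN2 and between 95.6% and 97.0% later. Slc2a3 encodes GLUT3, a transporter of high affinity found in neurons and some blood cells. It was listed at 2.13 FPKM at E18.5, 1.57 at PN2, 0.30 and 0.38 at PN14, 0.56 at PN28 and 3.52 in adult muscle, with the adult highest and the PN14 pair lowest. It fell from PN2 to PN14 (log2 fold change -1.55, SE 0.232, edgeR quasi-likelihood test with Benjamini-Hochberg adjusted p = 0.00885) and rose from PN28 to adult (2.79, SE 0.291, adjusted p = 0.0398 by the same test). The later call was lost when genes with a mean under 1 CPM were left out of the fit (adjusted p = 0.0702), and the rise from E18.5 to adult of 1.75 (log2) came to 0.72, not called, with library size alone. The 6 neuronal markers summed to 1.67 FPKM at PN28, with Snap25 at 0, and to 2.11 in adult muscle, and the 8 myeloid markers to 54.4 and 46.9, with none at 0. Their part in the level of Slc2a3 was not tested.

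Hexokinase traps glucose in the cell as glucose 6-phosphate. Hk2, the isoform of insulin-sensitive tissues, stood at 23.0 FPKM at E18.5, 13.8 at PN2, 28.4 and 19.9 at PN14, 38.9 at PN28 and 64.3 in adult muscle. The lowest value was at PN2, and the PN14 pair bracketed the value at E18.5. Hk2 rose from PN2 to PN14 (1.49, SE 0.388, edgeR quasi-likelihood test with Benjamini-Hochberg adjusted p = 0.0349), a call lost with library size alone (0.80), and 5.70-fold from E18.5 to adult. Hk1, the isoform of brain and red blood cells, went the other way, with 14.5 FPKM at E18.5, 10.02 at PN2, 4.96 and 7.18 at PN14, 4.35 at PN28 and 2.48 in adult muscle. From PN2 to PN14 its TMM fold change was only -0.08 (log2), and from E18.5 to adult it fell by 1.52 (SE 0.227, adjusted p = 0.00337 by edgeR's quasi-likelihood test, Benjamini-Hochberg method). Hk3, an isoform of white blood cells, stood at 1.58 FPKM at E18.5, 1.07 at PN2, 0.28 and 0.40 at PN14, 0.33 at PN28 and 0.29 in adult muscle. It fell by 1.38 (log2) from E18.5 to adult, a call that DESeq2's Wald test did not make (Benjamini-Hochberg adjusted p = 0.0862). The 8 myeloid markers summed to 81.7 FPKM at E18.5, 76.0 at PN2 and between 43.0 and 57.2 later. Much of that sum was Lyz2, at 29.9 FPKM at E18.5 and 33.8 in the adult, whereas Emr1 went from 4.2 to 0.74 and Ptprc from 1.34 to 0.41. Their part in the level of Hk3 was not tested.

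Before PN14 Hk2 held little more of its step than the other isoforms together. It accounted for 58.8% of the summed FPKM of the step at E18.5, 55.5% at PN2, 84.4% and 72.4% at PN14, 89.3% at PN28 and 95.9% in adult muscle. The PN14 mice differed by 12 percentage points, less than the gap between either of them and PN2.

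Gpi1, which turns glucose 6-phosphate into fructose 6-phosphate and has no second isoform, had a comparatively even level. It stood at 240 FPKM at E18.5, 272 at PN2, 398 and 432 at PN14, 394 at PN28 and 420 in adult muscle. The 2 perinatal libraries were the lowest, and the rise from E18.5 to adult (1.83, log2) was called with TMM but came to 0.81, not called, with library size alone. A pseudogene with at least 95% sequence identity to it, Gm1840, was not analysed here.

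Phosphofructokinase commits sugar to glycolysis and is its main point of control. Pfkm, the muscle subunit (chr15:97923020-97962878 in mm9), stood at 257 FPKM at E18.5, 333 at PN2, 808 and 686 at PN14, 858 at PN28 and 1456 in adult muscle. It rose 11.5-fold from E18.5 to adult (3.52, SE 0.731, edgeR quasi-likelihood test with Benjamini-Hochberg adjusted p = 0.00976), while from PN2 to PN14 the log2 fold change of 1.83 had an SE of 0.628 and an adjusted p of 0.0717 by the same test. Pfkl, the liver subunit, stood at 34.8 FPKM at E18.5, 10.1 at PN2, 3.86 and 5.41 at PN14, 3.75 at PN28 and 2.71 in adult muscle. Pfkp, the platelet subunit, followed the same order with 10.9 FPKM at E18.5, 5.54 at PN2, 2.50 and 3.96 at PN14, 1.97 at PN28 and 1.35 in adult muscle. Both fell from E18.5 to adult, Pfkl 6.32-fold and Pfkp 3.96-fold. Already before birth Pfkm held 84.9% of the step, and this became 95.5% at PN2, 99.2% and 98.7% at PN14, 99.3% at PN28 and 99.7% in adult muscle.

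Aldolase cleaves fructose 1,6-bisphosphate into triose phosphates. Aldoa (chr7:133938748-133944265 in mm9) was the most abundant of the 33 genes in the adult, with 2014 FPKM at E18.5, 1848 at PN2, 8289 and 5730 at PN14, 9192 at PN28 and 11697 in adult muscle. The lower PN14 value was more than 3 times that at PN2, yet the log2 fold change of 2.59 had an SE of 1.18 and was not called (edgeR quasi-likelihood test with Benjamini-Hochberg adjusted p = 0.141). With library size alone it was called. Aldoc, the brain isoform, was at 3.51 FPKM at E18.5, 0.73 at PN2, 0.31 in each PN14 library, 0.33 at PN28 and 0.26 in adult muscle, and fell 6.65-fold from E18.5 to adult. Its share of the step was 0.174% at E18.5 and 0.00222% in the adult. Tpi1, which interconverts the triose phosphates, had 1176 FPKM at E18.5, 1020 at PN2, 1676 and 1869 at PN14, 1536 at PN28 and 1374 in adult muscle, and was called in none of the comparisons by edgeR's quasi-likelihood test, while edgeR's exact test and DESeq2's Wald test called it higher from PN2 to PN14 and from E18.5 to adult.

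Gapdh, the NAD-dependent dehydrogenase of glycolysis and a common reference for RNA levels, stood at 3852 FPKM at E18.5, 3762 at PN2, 8558 and 8049 at PN14, 8961 at PN28 and 9801 in adult muscle. The 4 later libraries were all more than 2-fold above the 2 perinatal ones. With TMM the log2 fold change was 1.81 (SE 1.03) from PN2 to PN14 and 2.37 (SE 1.14) from E18.5 to adult, neither called (edgeR quasi-likelihood test with Benjamini-Hochberg adjusted p = 0.219 and 0.126), and with library size alone both were called. The genome annotation holds 23 genes at least 95% identical to Gapdh that were not analysed here, so its count may have lost or gained reads shared with them. Pgk1, which makes the first ATP of the pathway, stood at 486 FPKM at E18.5, 312 at PN2, 1019 and 1060 at PN14, 966 at PN28 and 612 in adult muscle. Its FPKM was highest at PN14, where the pair differed by little, whereas with TMM it was highest at PN28 (2160 CPM against 2120 and 1840 at PN14). It rose 5.28-fold from PN2 (2.40, SE 0.518, edgeR quasi-likelihood test with Benjamini-Hochberg adjusted p = 0.0212).

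The isoforms of phosphoglycerate mutase, whose promoters are given above, moved in opposite directions from E18.5 to adult. Pgam2 (chr11:5701643-5703736 in mm9), the muscle isoform, stood at 885 FPKM at E18.5, 935 at PN2, 2737 and 2443 at PN14, 3045 at PN28 and 2146 in adult muscle, highest at PN28. It rose 4.41-fold from PN2 to PN14 (2.14, SE 0.589, edgeR quasi-likelihood test with Benjamini-Hochberg adjusted p = 0.0405) and 4.94-fold from E18.5 to adult. Pgam1 (chr19:41986361-41993154), the form of brain and most other tissues, stood at 166 FPKM at E18.5, 57.1 at PN2, 20.3 and 30.5 at PN14, 17.2 at PN28 and 11.6 in adult muscle, and fell 7.04-fold from E18.5 to adult. From PN2 to PN14 the fold change of Pgam1 was -0.53 with TMM, not called, and -1.17 with library size alone, called. Pgam2 held 84.2% of the step at E18.5, 94.3% at PN2, 99.3% and 98.8% at PN14, 99.4% at PN28 and 99.5% in adult muscle. A near copy of Pgam1 (Gm8910) was not analysed here.

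Enolase makes phosphoenolpyruvate. Eno3 (chr11:70470704-70476015 in mm9), the muscle isoform, stood at 1540 FPKM at E18.5, 1633 at PN2, 4384 and 3919 at PN14, 4570 at PN28 and 3763 in adult muscle. All libraries from PN14 on were more than 2-fold above the earlier ones, with a log2 fold change from PN2 to PN14 of 2.01 (SE 0.841) that was not called with TMM (edgeR quasi-likelihood test with Benjamini-Hochberg adjusted p = 0.117) and was called with library size alone. Eno1, the widely expressed isoform, stood at 303 FPKM at E18.5, 219 at PN2, 108 and 199 at PN14, 87.9 at PN28 and 37.7 in adult muscle. It fell 3.94-fold from E18.5 to adult, and its change from PN2 to PN14 was 0.11 (log2) with TMM and -0.52 with library size alone, called with neither. Eno2, the neuronal isoform, stood at 5.46 FPKM at E18.5, 2.66 at PN2, 1.04 and 1.36 at PN14, 0.89 at PN28 and 0.66 in adult muscle, and fell 4.08-fold from E18.5 to adult. Eno3 held 83.3% of the step at E18.5, 88.0% at PN2, 97.6% and 95.1% at PN14, 98.1% at PN28 and 99.0% in adult muscle.

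The level of Eno1 is uncertain because the table also counts reads on Gm5506, whose transcript is 99.5% identical to that of Eno1 over 1648 bases. The counts on Gm5506 were between 0.642 and 0.668 of those on Eno1 in every library. Counting Gm5506 as Eno1 lowered the share of Eno3 to 75.2% at E18.5, 81.5% at PN2, 96.0% and 92.3% at PN14, 96.9% at PN28 and 98.3% in adult muscle, and left its order across stages as before.

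**Figure D4:**
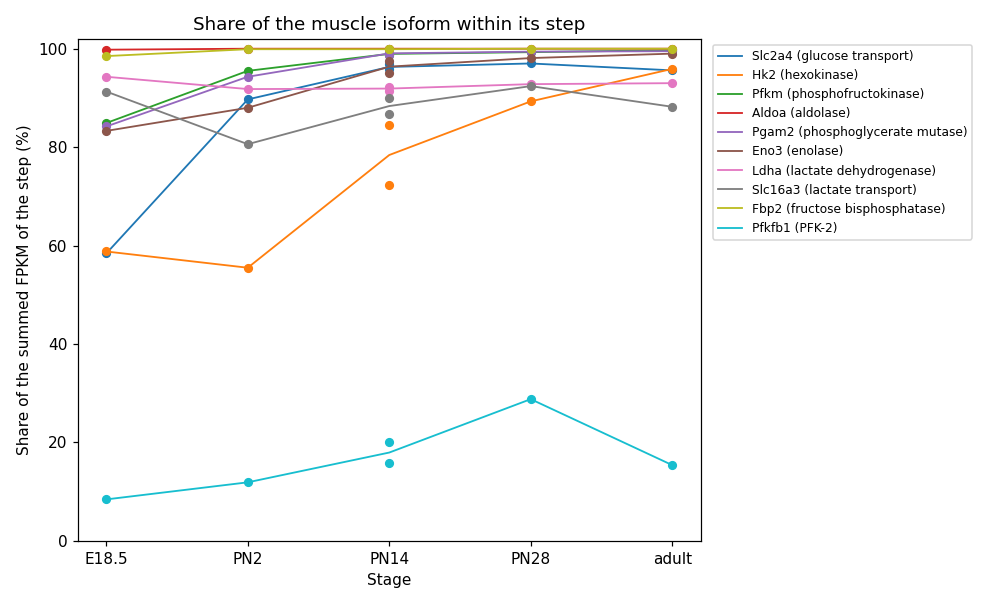
The share (%) of the summed FPKM of its step held by the muscle isoform is plotted by stage for the 10 steps with more than 1 isoform, with a point per library and lines through stage means. Slc2a4 and Hk2 start at 58.4% and 58.8% and end at 95.6% and 95.9%, while Ldha and Slc16a3 end close to where they start. Pfkfb1, plotted for the Pfkfb genes, starts at 8.43% and ends at 15.4%.

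Pkm encodes pyruvate kinase of muscle, in forms that differ by splicing and that gene values cannot separate. It stood at 736 FPKM at E18.5, 698 at PN2, 1444 and 1398 at PN14, 1460 at PN28 and 1645 in adult muscle. The pattern was that of Eno3 and Gapdh, with each later library above both perinatal ones. The log2 fold change from E18.5 to adult of 2.19 (SE 0.75) lay at the threshold and was not called (edgeR quasi-likelihood test with Benjamini-Hochberg adjusted p = 0.0501). With library size alone, without a filter on low counts, by edgeR's exact test and by DESeq2's Wald test it was called.

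From PN2 on, the isoforms of lactate dehydrogenase nearly kept pace. From E18.5 to PN2 the log2 ratio of Ldha to Ldhb changed by -0.57. Ldha, the muscle subunit, stood at 1026 FPKM at E18.5, 819 at PN2, 2118 and 1862 at PN14, 1978 at PN28 and 1791 in adult muscle. Ldhb, the heart subunit, stood at 62.0 FPKM at E18.5, 73.3 at PN2, 198 and 155 at PN14, 152 at PN28 and 135 in adult muscle. Both were highest in PN14 replicate 1. Ldhb rose 3.85-fold from PN2 to PN14 (1.95, SE 0.347, edgeR quasi-likelihood test with Benjamini-Hochberg adjusted p = 0.0131), while the fold change of Ldha, of the same size (1.95), had an SE of 0.659 and was not called (adjusted p = 0.0692 by the same test). Ldha held between 91.5% and 94.3% of the step in all 6 libraries, and the log2 ratio of Ldha to Ldhb differed by -0.33 between E18.5 and adult and by 0.16 between the PN14 mice.

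Lactate leaves glycolytic fibres through MCT4, the product of Slc16a3, and is taken up by oxidative cells through MCT1, the product of Slc16a1. Slc16a3 stood at 80.3 FPKM at E18.5, 48.8 at PN2, 99.4 and 87.7 at PN14, 126 at PN28 and 83.8 in adult muscle, lowest at PN2 and highest at PN28. It rose 3.06-fold from PN2 to PN14 with TMM (1.61, SE 0.315, edgeR quasi-likelihood test with Benjamini-Hochberg adjusted p = 0.0163), a call lost with library size alone (0.94). The rise from E18.5 to adult (1.09) was lost with library size alone (0.07) and when genes with a mean under 1 CPM were left out (edgeR quasi-likelihood test with Benjamini-Hochberg adjusted p = 0.0505). Slc16a1 had 7.67 FPKM at E18.5, 11.7 at PN2, 11.04 and 13.5 at PN14, 10.3 at PN28 and 11.2 in adult muscle. It rose 2.98-fold from E18.5 to adult with TMM and was not called with library size alone (0.55). The share of Slc16a3 was 91.3% at E18.5, 80.6% at PN2, 90.0% and 86.7% at PN14, 92.4% at PN28 and 88.2% in adult muscle, without a steady direction. The gene annotation of Slc16a3 overlaps that of Csnk1d, so reads there may have been assigned to either.

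The Pfkfb genes encode the bifunctional enzymes that make and remove fructose 2,6-bisphosphate, an activator of phosphofructokinase, and their order changed between stages. Pfkfb1, expressed in liver and muscle, stood at 1.18 FPKM at E18.5, 1.70 at PN2, 9.68 and 5.36 at PN14, 18.4 at PN28 and 25.1 in adult muscle. Pfkfb3, whose product strongly favours synthesis, stood at 4.72 FPKM at E18.5, 2.87 at PN2, 11.6 and 5.45 at PN14, 18.1 at PN28 and 107 in adult muscle. The adult library was far above all others, 6.48-fold above PN28, but this difference was not called (2.70, SE 0.646, edgeR quasi-likelihood test with Benjamini-Hochberg adjusted p = 0.119). It was called with library size alone (2.56), without a filter on low counts and by edgeR's exact test, and not by DESeq2's Wald test. From E18.5 to adult Pfkfb3 rose 46.7-fold and Pfkfb1 43.4-fold, the largest rises among the 33 genes. Pfkfb1 and Pfkfb3 were also the genes in which the PN14 mice differed most. Without PN14 replicate 1 the log2 fold change from PN2 to PN14 was 1.43 for Pfkfb3 in place of 2.28 and 2.13 for Pfkfb1 in place of 2.84, and DESeq2's Wald test did not call Pfkfb3 there (Benjamini-Hochberg adjusted p = 0.119).

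Pfkfb4, first described in testis, rose 4.93-fold from PN2 to PN14 (2.30, SE 0.306, edgeR quasi-likelihood test with Benjamini-Hochberg adjusted p = 0.00694), with 5.63 FPKM at E18.5, 6.56 at PN2, 22.4 and 18 at PN14, 24.1 at PN28 and 28.5 in adult muscle. Pfkfb2, the heart isoform, had 2.47 FPKM at E18.5, 3.10 at PN2, 4.78 and 4.81 at PN14, 3.30 at PN28 and 3.17 in adult muscle. Its rise with TMM (1.33 from PN2 to PN14) was not called with library size alone (0.67), nor was that from E18.5 to adult (1.45 with TMM, 0.42 with library size alone). Up to PN28 the leading isoform was Pfkfb4, with 40.2% of the summed FPKM at E18.5, 46.1% at PN2, 46.3% and 53.5% among the PN14 pair and 37.7% at PN28. In the adult it was Pfkfb3, with 65.3% against 17.4% for Pfkfb4, 15.4% for Pfkfb1 and 1.94% for Pfkfb2. By CPM, which are not scaled to length, Pfkfb3 led already at E18.5 (40.4% against 32.4% for Pfkfb4) and at PN28 (41.1% against 36.3%).

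Fructose bisphosphatase runs against phosphofructokinase, and Fbp2 is its muscle isoform. Fbp2 (chr13:62938244-62959760 in mm9) stood at 9.14 FPKM at E18.5, 109 at PN2, 23.7 and 38.0 at PN14, 16.6 at PN28 and 9.73 in adult muscle. It was the only one of the 33 genes with its highest level at PN2. The PN2 value was 12.0-fold above E18.5 (3.58, SE 0.288), just outside the threshold of edgeR's quasi-likelihood test (Benjamini-Hochberg adjusted p = 0.0559). Like the fold of Slc2a1, it was called with library size alone, without a filter on low counts and by both other tests. The fall from PN2 to PN14 was called (-1.19, SE 0.218, adjusted p = 0.014 by edgeR's quasi-likelihood test, Benjamini-Hochberg method). The comparison of E18.5 with adult called Fbp2 higher with TMM (1.12) but not with library size alone (0.09). Fbp1, the liver isoform, had 31 counts at E18.5, 17 at PN2, 4 and 11 at PN14, 1 at PN28 and 0 in adult muscle, and was at least 4.59-fold lower in the adult than at E18.5 when 3 counts stand in for the 0. DESeq2's Wald test did not call this fall (Benjamini-Hochberg adjusted p = 0.181). Fbp2 held at least 98.5% of the step in every library.

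Both genes of the glycerol phosphate shuttle rose. Gpd1, the cytosolic enzyme, stood at 17.1 FPKM at E18.5, 71.5 at PN2, 349 and 331 at PN14, 396 at PN28 and 354 in adult muscle. Gpd2, the mitochondrial enzyme, stood at 3.22 FPKM at E18.5, 6.48 at PN2, 35.4 and 26.4 at PN14, 32.2 at PN28 and 48.9 in adult muscle. For both genes every later library was above PN2, which in turn was above E18.5. From PN2 to PN14 Gpd1 rose 7.56-fold (2.92, SE 0.456, edgeR quasi-likelihood test with Benjamini-Hochberg adjusted p = 0.00975) and Gpd2 7.66-fold (2.94, SE 0.387, adjusted p = 0.00685 by the same test). From E18.5 to adult the rises were 42.1-fold and 30.8-fold, and all of these calls held with library size alone. Gpd1 is also abundant in fat cells, whose 6 markers summed to 377 FPKM at E18.5, 464 at PN2, 490 and 633 at PN14, 507 at PN28 and 330 in adult muscle. Most of that sum was Fabp4, which endothelial cells also make (372 FPKM at E18.5). Adipoq, made mainly by fat cells, stood at 1.06 FPKM at E18.5, 22.0 at PN2, 4.03 and 2.82 at PN14, 17.5 at PN28 and 12.8 in adult muscle, and 4 of the 6 markers were called higher from E18.5 to adult (median log2 fold change 4.68), with Lep at 0 at E18.5. The part of fat cells in the level of Gpd1 was not tested.

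The scaling between libraries divides the calls as follows. From PN2 to PN14, 9 genes rose under both TMM and library size alone (Slc2a4, Pgk1, Pgam2, Ldhb, Pfkfb1, Pfkfb3, Pfkfb4, Gpd1 and Gpd2), and Aldoa, Gapdh, Eno3, Pfkm, Pkm and Ldha were called higher with library size alone and not with TMM. These statements are for edgeR's quasi-likelihood test, and both edgeR's exact test and DESeq2's Wald test called these 6 genes, Gpi1 and Tpi1 higher there, with TMM and DESeq2's size factors respectively. Both falls, of Fbp2 and Slc2a3, held under both, and Hk3, Pfkl, Pgam1 and Eno2 were called lower with library size alone and not with TMM, where edgeR's exact test called Hk3 lower. From E18.5 to adult 10 genes rose under both, Hk2 and Pfkm now among them and Pgk1 not, and all 9 falls held under both. Library size alone shifts fold changes downward, with a median of all genes of -0.66 from PN2 to PN14 and -1.08 from E18.5 to adult. That a fall held under it is therefore no separate support for the fall. In the PN14 pair, replicate 2 had lower FPKM of Slc2a4, Hk2, Pfkm, Aldoa, Pgam2, Eno3 and Ldha and higher FPKM of Hk1, Pfkl, Pfkp, Pgam1 and Eno1 than replicate 1. It also had a Schwann cell and nerve marker sum (7 genes) of 1180 FPKM against 324, an endothelial sum (7 genes) of 318 against 196 and a muscle fibre sum of 118000 against 140000, and the part of these in the isoform levels was not tested. Across stages the fibroblast and tendon sum (7 genes) was 4560 FPKM at E18.5, 3700 at PN2, 1240 and 1530 at PN14, 1330 at PN28 and 456 in adult muscle, in the same order as Pfkl, Pgam1 and Eno1 apart from the place of PN28. The satellite cell sum (5 genes, 4 of them called lower from E18.5 to adult) was 86.4 FPKM at E18.5, 77.9 at PN2, 20.6 and 36.6 at PN14, 17.8 at PN28 and 10.2 in adult muscle, in the same order as these isoforms throughout. The cartilage and bone sum (5 genes, all called lower from E18.5 to adult) was 110 FPKM at E18.5 and 0.19 in the adult, with Bglap and Ibsp at 0 there. The part of these cells in the isoform levels was not tested.

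Genes on either side of the pathway were followed in 3 lists. Of 15 genes for the entry of pyruvate into mitochondria, 10 rose and 1 fell from PN2 to PN14, against 11.8% and 11.2% of all genes, and 10 rose and 2 fell from E18.5 to adult, against 21.4% and 23.6%. Mpc1 and Mpc2, which form the mitochondrial pyruvate carrier, rose from PN2 to PN14 by 2.60 (SE 0.308) and 2.27 (SE 0.26), and Mpc1 stood at 67.4 FPKM at E18.5, 63.7 at PN2, 251 and 234 at PN14, 262 at PN28 and 356 in adult muscle. Among the kinases that switch off pyruvate dehydrogenase, Pdk2 and Pdk4 rose and Pdk3 fell from PN2 to PN14 and from E18.5 to adult. Pdk1 was called in neither comparison, and from PN2 to PN28 Pdk4 changed by -0.91 (log2), not called. Pdk3 stood at 14.4 FPKM at E18.5, 13.2 at PN2, 1.66 and 2.83 at PN14, 1.31 at PN28 and 0.76 in adult muscle. With library size alone 5 genes of this list were called from PN2 to PN14 in place of 11.

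Of 8 genes for other shuttles of cytosolic NADH, mainly the malate-aspartate shuttle, 6 rose and none fell from PN2 to PN14, against 11.8% and 11.2% of all genes, with Got1, the cytosolic aspartate aminotransferase, foremost (2.74, SE 0.312). From E18.5 to adult 5 rose and 1, Slc25a13, fell, against 21.4% and 23.6%. Of 16 tested genes for other hexose, lactate and pyruvate steps, 2 rose and 1 fell from PN2 to PN14, shares near or below those of all genes (11.8% and 11.2%), and 7 rose and 3 fell from E18.5 to adult, against 21.4% and 23.6%. Ldhd, the mitochondrial D-lactate dehydrogenase, was at 0.68 FPKM at E18.5, 1.26 at PN2, 20.2 and 11.6 at PN14, 20.7 at PN28 and 16.2 in adult muscle. Bpgm, which makes 2,3-bisphosphoglycerate, stood at 9.83 FPKM at E18.5, 12.98 at PN2, 40.6 and 33.4 at PN14, 40.7 at PN28 and 50.2 in adult muscle. Both rose in both comparisons, whereas Hkdc1, a hexokinase-like gene, fell in both.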

How the data were processed

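Polyadenylated RNA of the gastrocnemius from 5 stages was sequenced in 6 libraries (1 per stage, 2 at PN14). The authors aligned reads to mm9 with TopHat2 (2.0.5) and ran RSEM on RefSeq gene models. They deposited expected counts per gene, which are not normalized, and FPKM values, which are scaled to transcript length and to the library's counts on genes. Counts on genes ranged from 125402932 to 157868359, and 3 counts, the floor used for bounds, equal between 0.0131 and 0.0295 CPM (counting error only).

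Expected counts were rounded and tested in R 4.3.3 with edgeR 4.0.16 (TMM, filterByExpr by stage, quasi-likelihood test, all libraries in 1 fit, Benjamini-Hochberg adjustment over 16882 genes). A single residual degree of freedom remained, given by the PN14 pair, so p-values measure the spread of those mice only. The fit also drew on the spread of other genes, weighted as 4.86 further degrees of freedom. The SE of a gene therefore does not follow its own PN14 difference alone. Gapdh differed by -0.35 (log2) between the PN14 mice and had an SE of 1.03 from PN2 to PN14, while Pfkfb3 differed by -1.36 and had an SE of 0.593. Each SE was worked back from the test, as the size of the log2 fold change divided by the square root of its F statistic. The common biological coefficient of variation was 0.188. The test was tested on simulated data. The 2-fold counts used log2 of TMM CPM with a pseudocount of 0.1 for genes that reached 1 CPM in a compared stage, and medians over genes used the same scale. Marker and pathway lists were summed or counted with no set test. Near copies were searched with blast 2.17.0 against GENCODE M1 transcripts, coordinates come from that annotation (mm9), and promoters from a RefSeq table. Figures were made with matplotlib 3.10.9.

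Members and lists were chosen with earlier results of these data known. A gene had its value in every library given where it is a muscle isoform, the most abundant isoform of its step or called from PN2 to PN14 or E18.5 to adult, and others by range. Alternatives were library size alone, DESeq2 size factors, DESeq2's Wald test (1.42.0), edgeR's exact test, other filters on low counts and leaving out a PN14 replicate. The 2-fold counts, Gm5506 counted as Eno1, the step counts by CPM and the pathway lists under these settings were added after seeing the data. Splicing and protein were not analysed here, and results for some listed genes are not reported here.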

Additional observations from a re-analysis of the deposited data

How the results depend on the processing

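No paired analysis was possible because replicate numbers exist at PN14 only, so the stages compared share fewer than 2 numbers. The cause of the changes below was not tested. With library size alone, 138 of the 198 fold changes of the 33 genes (33 genes in 6 comparisons) kept direction and side of the threshold, 39 passed it, 10 lost it and 11 turned sign. Those that turned were Slc2a1 (-0.09) and Eno1 (-0.52) from PN2 to PN14, Slc2a1 (-0.02), Hk3 (-0.03), Gpi1 (-0.08), Tpi1 (-0.21), Pgk1 (-0.10) and Ldha (-0.0092) from PN14 to PN28, Pfkfb2 (-0.04) from PN28 to adult, and Slc2a1 (-0.11) and Slc16a1 (-0.18) from PN2 to PN28, and none of them was called with TMM. With library size alone the medians over the 33 genes became 0.80 between PN2 and PN14, -0.0018 between PN14 and PN28, 0.72 from E18.5 to adult and 1.06 from PN2 to PN28. The genes called among the 33 became 5 between E18.5 and PN2, 2 between PN14 and PN28, 3 between PN28 and adult and 27 between PN2 and PN28, and of all genes 241, 262, 868 and 7151, against 5, 3, 88 and 4566 with TMM. It also gave 9 calls in the list of other hexose, lactate and pyruvate steps, 5 in that of pyruvate entry and 6 of the 12 reference genes from PN2 to PN14, and 3 in the NADH shuttle list from E18.5 to adult, against 3, 11, 2 and 6.

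Other tests called more of the 33 genes. The share of all genes called was not computed for these tests or for the other filters on low counts. DESeq2's Wald test called 5 between E18.5 and PN2, 1 between PN14 and PN28, 2 between PN28 and adult and 20 between PN2 and PN28. The exact test of edgeR called 6, 1, 2 and 21 there and 23 from PN2 to PN14, and 8 genes of the other hexose list. Without a filter on low counts 4 were called between E18.5 and PN2, 2 between PN28 and adult and 6 genes of the other hexose list from PN2 to PN14, and with a mean of at least 1 CPM 0 from PN28 to adult. At least 2-fold differences without a test numbered 7 between E18.5 and PN2, 22 between PN2 and PN14, 2 between PN14 and PN28, 3 between PN28 and adult and 21 between PN2 and PN28. Leaving out a PN14 replicate gave between 21 and 23 such differences from PN2 to PN14 and between 1 (without replicate 2) and 4 (without replicate 1) from PN14 to PN28, and medians between 1.37 and 1.82 from PN2 to PN14. The shares of all genes with 2-fold differences from PN2 to PN14, from PN2 to PN28 and without a PN14 replicate are not reported here. Those counts of the 33 genes therefore have no background beside them. Ldhb from PN14 to PN28 turned from -0.0024 to 0.00023 with DESeq2's size factors and 0.00022 with its test. Taken over counts in place of FPKM, the 33 genes held 1.97% at E18.5, 1.86% at PN2, 4.51% at PN14, 5.0% at PN28 and 5.41% in adult muscle. With 1 library at 4 of the 5 stages, the number of libraries limits these comparisons.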

Other observations

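Gapdh and Pgk1 are themselves used as references for RNA levels, and in these libraries Gapdh moved against the other genes used in that way. The FPKM of Gapdh was 7.56 times that of Actb at E18.5, 7.59 times at PN2, 42.0 and 29.0 times at PN14, 57.1 times at PN28 and 92.3 times in adult muscle. Against Tbp the ratio was 421 at E18.5, 487 at PN2, 2000 and 1660 at PN14, 2770 at PN28 and 3230 in adult muscle. Against Sdha, a subunit of a respiratory complex, it stayed between 22.9 and 41.3. These ratios are taken within a library and do not depend on scaling. Among the reference genes other than Gapdh and Pgk1, Sdha and Tfrc rose from PN2 to PN14, and from E18.5 to adult Sdha rose while Actb, Ppia, Ywhaz and Gusb fell by edgeR's quasi-likelihood test.

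Pdk4, a kinase that switches off pyruvate dehydrogenase, stood at 14.6 FPKM at E18.5, 97.2 at PN2, 132 and 361 at PN14, 27.9 at PN28 and 37.8 in adult muscle, with a wide gap between the PN14 mice.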
